A study of Mus musculus with 6 samples.

Results

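The TAM receptors are the receptor tyrosine kinases Tyro3, Axl and Mertk, and with their bridging ligands Gas6 and Pros1 and the related bridging protein Mfge8 they make up the 6 genes described here. The members were chosen by gene symbol from the 19938 genes that had a probe set with exactly 1 symbol. The rule takes the probe set with the highest mean over all arrays, but each of the 6 members had only 1 such set, so no choice between sets was made. The family was picked with the differences of Mertk and Axl in these data already known, so what follows for those genes describes the measurements and gives no independent support.

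RNA of flushed marrow from femurs and tibiae was measured on 6 single-colour Affymetrix arrays, 3 of wild type and 3 of diabetic mice, all male and 10 weeks old, with no treatment. The labels give the wild type genotype as BKS.Cg-Dock7m +/+ Leprdb/JNju and the diabetic genotype as BKS.Cg-Dock7m -/- Leprdb/JNju. Both strings name the Dock7m allele of the strain as well as db, a splicing mutation of the leptin receptor gene that gives obesity and type 2 diabetes, and do not settle which animals carried Dock7m. The defect is present in every tissue from birth, the marrow was not sorted, and nothing in the labels says whether an array held 1 animal or a pool, so p-values measure only the spread between these samples.

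TAM receptors sit mainly on macrophages and dendritic cells, where they serve the uptake of dying cells, a process called efferocytosis. Gas6 and Pros1 hold phosphatidylserine, the lipid exposed by dying cells, at one end and a TAM receptor at the other, while Mfge8 links the same lipid to integrins of the alpha v family. TAM receptors also damp inflammation by working through the type I interferon receptor to raise the Socs inhibitors. In marrow, resident macrophages take up the nuclei cast off by red cell precursors and aged neutrophils.

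The deposited values were log2 signals. Array medians ran from 7.67 to 7.73, and the correlation of any pair of arrays over all probe sets lay between 0.990 and 0.994, so no array was a copy of another. Marrow genes such as Elane, Ltf and Mpo, of granulocytes and their precursors, had mean log2 signals of 13.61, 13.46 and 13.43, and the muscle genes Acta1 and Ckm were at 8.21 and 7.98. The pre-B cell gene Vpreb1 was under the level filter. The Lepr probe set averaged 5.80 ± 0.14 (SD, n = 3) in wild type mice and 5.69 ± 0.04 (SD, n = 3) in diabetic mice. It reads the whole gene and does not check a splicing mutation.

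The sequences just upstream of the 3 receptor genes are shown because Mertk and Axl had lower signals in diabetic marrow, while the groups overlapped for Tyro3. Of these receptors only Mertk passed the test. Each line gives the 250 bases before the RefSeq start, 5′ to 3′ on the strand of the gene, in build GRCm38.p6. Capitals mark CG dinucleotides. Mertk is at chr2:128698665-128698914 on the plus strand, Axl at chr7:25788734-25788983 on the minus strand and Tyro3 at chr2:119799264-119799513 on the plus strand.
Mertk: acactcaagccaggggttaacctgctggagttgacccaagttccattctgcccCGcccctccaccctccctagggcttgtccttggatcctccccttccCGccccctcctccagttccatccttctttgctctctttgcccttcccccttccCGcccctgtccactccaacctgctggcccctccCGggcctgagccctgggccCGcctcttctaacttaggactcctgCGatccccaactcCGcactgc
Axl: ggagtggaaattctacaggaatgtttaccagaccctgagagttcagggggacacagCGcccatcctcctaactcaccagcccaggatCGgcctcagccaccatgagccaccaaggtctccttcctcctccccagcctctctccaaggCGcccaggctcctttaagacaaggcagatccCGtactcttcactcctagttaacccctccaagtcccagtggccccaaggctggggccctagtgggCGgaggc
Tyro3: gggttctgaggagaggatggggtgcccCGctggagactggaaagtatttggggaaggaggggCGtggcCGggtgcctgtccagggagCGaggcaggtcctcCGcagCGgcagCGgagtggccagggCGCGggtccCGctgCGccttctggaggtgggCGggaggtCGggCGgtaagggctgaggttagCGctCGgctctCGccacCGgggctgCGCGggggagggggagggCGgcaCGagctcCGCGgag
The stretch of Tyro3 holds 24 CG dinucleotides and that of Mertk 7, while that of Axl holds 5. In the full RefSeq window, which runs to 50 bases after the start, the counts were 31 for Tyro3, 14 for Mertk and 6 for Axl, at the 90.5, 65.4 and 47.9 percentile of 32851 windows. The GC content of these windows was 73.3% for Tyro3, 66.0% for Mertk and 60.3% for Axl, against a median of 52.7% over all windows. The full windows of all 6 members were searched on both strands. The core of an interferon response element, GAAA and again GAAA after 2 letters of any kind, is in 3.44% of all windows and in 0 of these 6. The STAT-type core TTCNNNGAA, present in 8.30% of windows, was found among the members in the Pros1 window alone, starting at position -92. A direct repeat of AGGTCA with 4 letters between, the classic LXR element, is in 0.0152% of windows and in no member's. These letters are absent from this window only, and nothing follows about factors bound elsewhere.

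The first question was how each receptor differed between diabetic and wild type marrow. Mertk, the receptor best known for the uptake of apoptotic cells by macrophages, was lower in diabetic marrow. Its log2 signal was 8.52, 8.63 and 8.60 in the wild type group and 8.10, 8.20 and 8.04 in the diabetic group. All 3 diabetic values lay under all 3 wild type values, and the gap between the groups was 0.32. The means were 8.59 ± 0.06 and 8.11 ± 0.09 (SD, n = 3 each). The diabetic mean lay under the level of the muscle gene Acta1, 8.21, and near that of Ckm, 7.98. Whether the Mertk probe set read above background was not tested, so the size of a change in RNA is uncertain. The log2 change of Mertk was -0.47 ± 0.07 (SE, n = 3 per group), with a 95% interval of -0.63 to -0.32, which was 1.39-fold lower. Its adjusted p was 0.0380 (limma, Benjamini-Hochberg) over 11940 genes, the 40th smallest p of all. This call was lost without any 1 of the 6 arrays. It became 0.0540, 0.215 and 0.0545 without wild type replicate 1, 2 and 3, and 0.251, 0.105 and 0.162 without diabetic replicate 1, 2 and 3, with changes from -0.52 to -0.43.

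Axl, a receptor that binds Gas6 and that type I interferon is known to induce, had a difference of similar size. The log2 signals of Axl were 10.27, 10.32 and 10.24 in the wild type group and 9.58, 9.74 and 9.92 in the diabetic group. Again the groups did not overlap, with a gap of 0.32, but the diabetic arrays were spread more widely, with an SD of 0.17 against 0.04 in wild type (n = 3 each). The difference was -0.53 ± 0.09 (SE, n = 3 per group), with a 95% interval of -0.73 to -0.32, or 1.44-fold lower. It did not pass, with an adjusted p of 0.0741 (limma, Benjamini-Hochberg), and leaving out 1 array moved it from -0.61 to -0.45 with adjusted p between 0.0766 and 0.385. Only with array weights, where the weight estimate stopped before it converged, was it past the threshold, at -0.65 and an adjusted p of 0.000827.

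Tyro3, the receptor most prominent in the nervous system, had log2 signals of 7.66, 7.58 and 7.50 in wild type and 7.61, 7.58 and 7.48 in diabetic marrow. These values overlapped throughout. The difference was -0.02 ± 0.07 (SE, n = 3 per group), with a 95% interval of -0.18 to 0.14. This interval of the probe set's signal leaves out a change of the size measured for Mertk or Axl. The mean level of Tyro3, 7.57, lay under those of the muscle genes Acta1 and Ckm, at 8.21 and 7.98. A change in RNA can be hidden at such a level, and whether the probe set read above background was not tested.

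**Figure D1:**
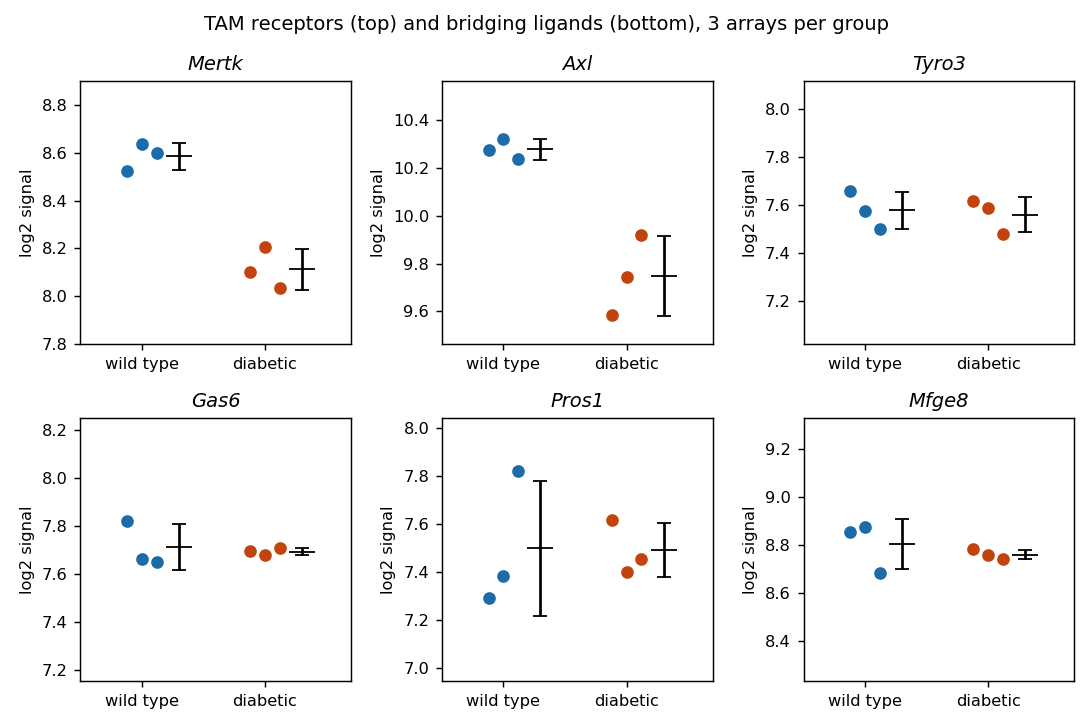
Log2 signal of the 3 TAM receptors (top) and 3 bridging proteins (bottom) on each array, wild type in blue and diabetic in orange; black marks are the mean and SD of 3 arrays, and every panel spans 1.1 log2 units. The groups stand apart for Mertk and Axl, with gaps of 0.32, and overlap for the other 4 genes.

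The bridging proteins did not pass. Gas6, the ligand of all 3 receptors, had log2 signals of 7.82, 7.66 and 7.65 in wild type and 7.69, 7.68 and 7.71 in diabetic marrow. The diabetic values lay within the wild type range, and the difference was -0.02 ± 0.07 (SE, n = 3 per group), with an interval of -0.17 to 0.13. The mean level of Gas6, 7.70, also lay under those of Acta1 and Ckm, so a change in its RNA could be hidden near background. Mfge8, the bridge to integrins, was at 8.85, 8.87 and 8.68 in wild type and 8.78, 8.76 and 8.74 in diabetic marrow. The difference of Mfge8 was -0.04 ± 0.07, with an interval of -0.20 to 0.12. For both genes the diabetic arrays were closer together than the wild type arrays, with SDs of 0.01 against 0.09 for Gas6 and 0.02 against 0.11 for Mfge8.

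Pros1 encodes protein S, also an anticoagulant cofactor of plasma made by liver, endothelium and megakaryocytes. Its log2 signals were 7.29, 7.38 and 7.82 in wild type and 7.62, 7.40 and 7.45 in diabetic marrow. Wild type replicate 3 was the highest of all 6, and the groups overlapped. The difference was -0.01 ± 0.13 (SE, n = 3 per group), with an interval of -0.31 to 0.30 that is wide enough to hide a change of moderate size. Without wild type replicate 3 it was 0.15. On the 5 tested megakaryocyte markers, among them Ppbp, Itga2b and Gp9, wild type replicate 3 was also the highest array, with a list mean of 10.86 against 10.05 to 10.50 on the other 5 arrays. Whether this had a part in the Pros1 value was not tested.

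Genes were tested where the mean log2 signal over the 6 arrays reached 7.52, the 40th percentile of the probe sets with 1 symbol. Of the members, 5 passed this filter and Pros1, at 7.49, did not. The member just inside was Tyro3, at 7.57. Pros1 was read from a fit of all 21789 probe sets with 1 symbol. Mertk and Axl had both group means above the filter, so neither entered through 1 group only. Of the 6 members, 1 was called lower and 0 higher, where 0.327% of all genes tested were called lower and 0.0838% higher. In 2 members the groups did not overlap, with diabetic values lower, as in 5.38% of all genes tested, while 6.99% of genes had groups apart with diabetic values higher and 12.4% in either direction. All 5 tested members had changes below 0, as did 47.6% of all genes. The members were picked with these differences known, so nothing is read from either share.

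The change of Mertk and that of Axl were then set against each other and against Tyro3, by the difference of their log2 signals on each array. Mertk minus Axl differed between the groups by 0.06 ± 0.13 (SE, n = 3 per group), with an exact two-sided permutation p of 0.7. Against Tyro3, Mertk shifted by -0.45 ± 0.08 and Axl by -0.51 ± 0.14, each with groups that did not overlap. For both of these the exact two-sided permutation p was 0.1, which is the smallest that 3 against 3 arrays allow, and 0.15 after Benjamini-Hochberg adjustment over the 3 pairs. On the diabetic arrays the receptors did not follow each other. Axl was lowest on diabetic replicate 1 and highest on replicate 3, while Mertk was lowest on replicate 3 and highest on replicate 2.

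The arrays read whole marrow, in which fewer cells of a type and less RNA per cell cannot be told apart. Resident macrophage markers were therefore compared, since these cells carry Mertk and Axl. Of 16 markers, 14 were tested, 12 with values below 0 and 2 above. The other 2, Marco and Vsig4, were under the level filter, at mean levels of 7.41 and 6.31. In the fit of all probe sets with 1 symbol they were at -0.14 ± 0.06 and 0.40 ± 0.17 (SE, n = 3 per group). None of the 14 was called, where 0.410% of all genes tested were. In the lower direction 8 had an unadjusted p under 0.05 (limma) and in the higher 1. Of all genes, 3.17% and 3.99% did so, 7.16% in either. The median change of the 14 was -0.28, against 0.00 over all genes tested. The mean of the 14 markers was 9.72, 9.86 and 9.91 in the wild type group and 9.59, 9.65 and 9.67 in the diabetic group, so the groups did not overlap. C1qb, a chain of complement C1q, had a log2 difference of -0.62 ± 0.12, Siglec1, a sialic acid receptor of marrow macrophages, -0.34 ± 0.07, the mannose receptor Mrc1 -0.34 ± 0.09 and Cd68 -0.25 ± 0.07 (SE, n = 3 per group). Cd163, the haemoglobin scavenger receptor, ran the other way at 0.34 ± 0.06, with 7.85, 7.79 and 7.82 in wild type and 8.18, 8.17 and 8.12 in diabetic marrow. Its adjusted p was 0.0660 (limma, Benjamini-Hochberg). The other tested marker above 0 was Adgre1, at 0.27 ± 0.14 and a mean level of 10.75, with overlapping groups. Adgre1 was named after its value was seen. Csf1r, the growth factor receptor of the whole lineage, differed by only -0.01 ± 0.07, a value chosen for display after it was seen.

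Relative to the mean of those 14 markers on the same array, Mertk was lower in diabetic marrow by a shift of -0.28 ± 0.07 and Axl by a shift of -0.33 ± 0.10 (SE, n = 3 per group). In each case all 3 diabetic arrays lay under all 3 wild type arrays. The exact two-sided permutation p was 0.1 for both, the smallest possible, and 0.3 after Benjamini-Hochberg adjustment over the 6 members. Leaving out 1 array moved the shift of Mertk from -0.31 to -0.22 and that of Axl from -0.40 to -0.27. The other 4 members shifted upward against the markers, by 0.18 for Tyro3, 0.18 for Gas6, 0.19 for Pros1 and 0.15 for Mfge8, with exact permutation p from 0.2 to 0.3 and overlapping groups. The changes of the markers themselves ran from -0.62 for C1qb to 0.34 for Cd163, and C1qb fell further than Mertk or Axl. These shifts are therefore from the mean of the markers and not from each of them.

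**Figure D2:**
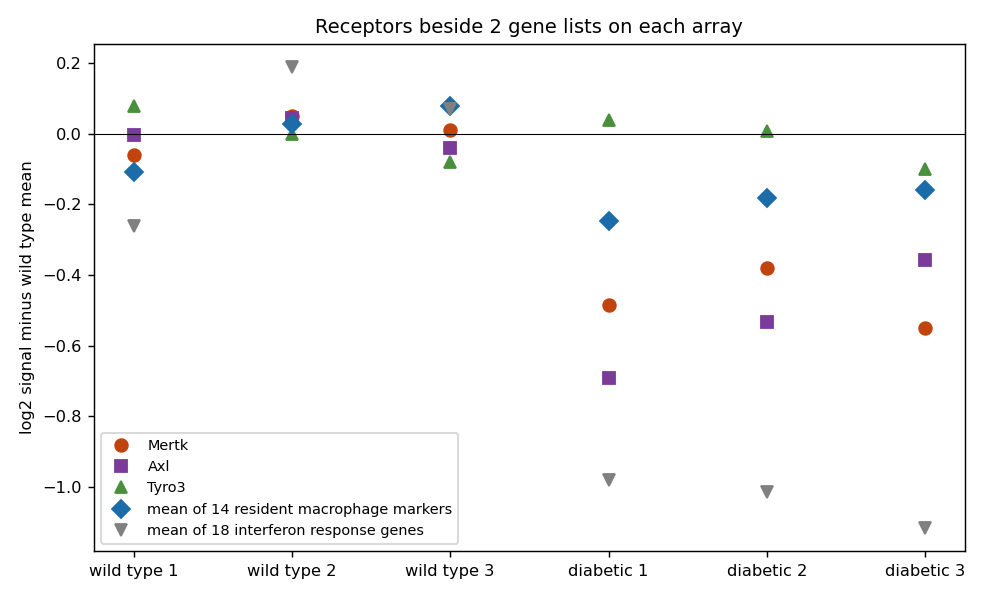
Log2 signal on each array minus the wild type mean, for Mertk, Axl and Tyro3 and for the means of 14 resident macrophage markers and 18 interferon response genes. On the diabetic arrays Mertk and Axl lie below the macrophage markers and above the interferon genes, and Tyro3 lies near 0.

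Genes of the interferon response were lower in diabetic marrow as well. Of 23 listed genes, 18 were tested, 11 were called lower and 0 higher, where 0.327% and 0.0838% of all genes tested were so called, and the median change was -1.07. The mean of the 18 was 9.72, 10.17 and 10.05 in the wild type group and between 8.864 and 9.001 in the diabetic group. Ifit3 had a log2 change of -1.78 ± 0.16, Oas1a had a change of -0.99 ± 0.10 and Oas2 of -1.49 ± 0.16. Zbp1, a nucleic acid sensor, was at -0.97 ± 0.10, and Usp18, the ISG15 protease, at -1.42 ± 0.16 (SE, n = 3 per group). Their adjusted p values ran from 0.0118 to 0.0177 (limma, Benjamini-Hochberg). The other called genes of the list apart from Stat2 were Oasl1 at -0.94 ± 0.11, Xaf1 at -1.26 ± 0.15, Oasl2 at -1.35 ± 0.16, Rtp4 at -1.67 ± 0.21 and Irf7, a transcription factor that drives interferon genes, at -1.30 ± 0.17, with adjusted p from 0.0194 to 0.0280. The count of 11 became 5 without wild type replicate 2, and 2, 0 and 2 without diabetic replicate 1, 2 and 3. It was 18 with array weights, and 0 both with the replicate block and with all probe sets tested. The list was chosen with this difference known and is no independent evidence of its direction. Its part in the values of Mertk and Axl was not tested.

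Other cell types that carry or make members of the family were read from their own markers. None of these markers was called, where 0.410% of all genes tested were. Few or no calls would fall among so few genes at that share, so nothing is read from the count. Dendritic cell markers, with 6 tested, had a median change of -0.20, and their mean was 8.98, 9.04 and 8.99 on the wild type and 8.78, 8.76 and 8.92 in the diabetic group. Of the 6, 4 were below 0 and 2 above. Those with the highest signals were Cd209a, at a mean level of 10.18, Siglech at 10.02 and Flt3 at 8.91. Their changes were -0.53 ± 0.20, -0.07 ± 0.07 and 0.23 ± 0.06 (SE, n = 3 per group). Monocyte markers, with 5 tested, had a median of 0.20, led in level by Fn1, Ccr2 and F13a1. These 3 were at 0.65 ± 0.13, 0.05 ± 0.10 and 0.28 ± 0.10 (SE, n = 3 per group). The 1 monocyte marker below 0 was Ms4a4c, at -0.40 ± 0.12, named after its value was seen. The medians were -0.08 for 5 megakaryocyte markers, 0.02 for 6 stromal markers, among them Col1a1, Col1a2 and Pdgfrb, and -0.06 for 3 endothelial markers, Pecam1, Egfl7 and Cdh5. Of the stromal list 5 of 11 genes, and of the endothelial list 3 of 6, were under the level filter. The part of these cell types in the members' values was not tested.

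The 3 genes most like each tested member were found by the root mean square difference of log2 signals over the 6 arrays, after each gene was centred on its own mean. The difference between the groups is part of this distance, so genes close to Mertk or Axl must be lower in diabetic marrow too. Their direction and calls are therefore no independent support. For Mertk they were Dusp19, a dual-specificity phosphatase, at 0.05, Car13, a carbonic anhydrase, at 0.06 and Itgax, the CD11c integrin of dendritic cells and some macrophages, at 0.06. Dusp19 was called lower, at -0.40 with adjusted p 0.0483, while Car13, at -0.41, and Itgax, at -0.37, were not, with adjusted p of 0.224 and 0.103 (limma, Benjamini-Hochberg). For Axl they were Frmd4b at 0.07, Stat2, a transcription factor of interferon signalling, at 0.08 and the cell surface proteoglycan Sdc3 at 0.08. Stat2 and Sdc3 were called lower, at -0.49 and -0.58, with adjusted p of 0.0406 and 0.0348, and Frmd4b, at -0.52, was not, with an adjusted p of 0.104 (limma, Benjamini-Hochberg). The call on Dusp19 was lost without any 1 of the 6 arrays, that on Stat2 without any but wild type replicate 3, and that on Sdc3 without any but wild type replicate 1 or 3. Tyro3 was closest to Mprip, Tjp3 and Ghrh, Gas6 to T2, Nrsn2 and Rhbdf1, and Mfge8 to Gata5, Wdr6 and Mau2, at distances of 0.01 to 0.02, which are those of genes that hardly vary.

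Other receptors that recognise dying cells were listed to see whether they shared the fall of Mertk. Of 16, 14 were tested and 0 were called in either direction, where 0.410% of all genes tested were called. At that share few or no calls would fall among so few genes, so the count does not answer the question. Values were below 0 in 8 of the 14, as in 47.6% of all genes, and the median change was -0.03. Lrp1, an endocytic receptor, was at 9.99, 9.84 and 9.87 in wild type and 10.16, 10.08 and 10.29 in diabetic marrow, a difference of 0.27 ± 0.08 (SE, n = 3 per group). Lrp1 was not called (adjusted p 0.432, limma, Benjamini-Hochberg). The integrin subunit Itgav, a partner of Mfge8, was at 0.09 ± 0.07, Adgrb1, also called Bai1, at -0.08 ± 0.07 and Cd300a, an inhibitory lipid receptor, at -0.06 ± 0.08. Timd4, a phosphatidylserine receptor of tissue macrophages, was at -0.03 ± 0.11 and was named after its value was seen. The mean levels of Timd4, 7.72, and Adgrb1, 7.94, lay under those of Acta1 and Ckm, so a change in their RNA could be hidden.

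In the machinery that swallows the bound cell no gene was called, where 0.410% of all genes tested were. Among 12 tested genes of 14, 8 were above 0 and the median was 0.02. Vav1, an exchange factor that acts below Mertk, was at 0.25 ± 0.11, Elmo1, which with Dock1 switches on the GTPase Rac1, at 0.14 ± 0.06, the autophagy protein Becn1 at 0.10 ± 0.08 and Rubcn, needed for LC3-associated phagocytosis, at -0.21 ± 0.16 (SE, n = 3 per group). Without wild type replicate 3 Vav1 was at 0.12, Becn1 at 0.16 and Rubcn at -0.41, and without wild type replicate 1 Becn1 was at 0.064 and Rubcn at -0.074. Becn1 was at 0.049 without diabetic replicate 2. Genes that put phosphatidylserine on or off the outer face of the membrane had 5 tested members, 4 above 0, and a median of 0.04. The flippase Atp11a was at 0.31 ± 0.11, the lipid-binding annexin Anxa5 at -0.10 ± 0.06, the scramblase Ano6 at 0.11 ± 0.10 and the flippase subunit Tmem30a at 0.04 ± 0.07. Ano6 was at 0.0059 without wild type replicate 3 and at 0.19 without wild type replicate 1.

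Gas6 and Pros1 must be gamma-carboxylated by a vitamin K enzyme before they bind lipid, and Mertk and Axl can be cut from the cell surface by Adam proteases. A list of these enzymes and of further reported ligands had 7 tested genes of 8 and a median of 0.01. Of these genes 0 were called, where 0.410% of all genes tested were. Lgals3, galectin-3, a reported Mertk ligand, was at 11.59, 11.58 and 11.60 in wild type and 11.87, 11.61 and 11.95 in diabetic marrow. The difference was 0.22 ± 0.09 (SE, n = 3 per group), for which the adjusted p was 0.670 (limma, Benjamini-Hochberg). The carboxylase Ggcx was at -0.04 ± 0.06 and the vitamin K reductases Vkorc1l1 and Vkorc1 at -0.02 ± 0.07 and 0.03 ± 0.11. The sheddases Adam17 and Adam10, named after their values were seen, were at 0.01 ± 0.06 and -0.0033 ± 0.12.

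**Figure D3:**
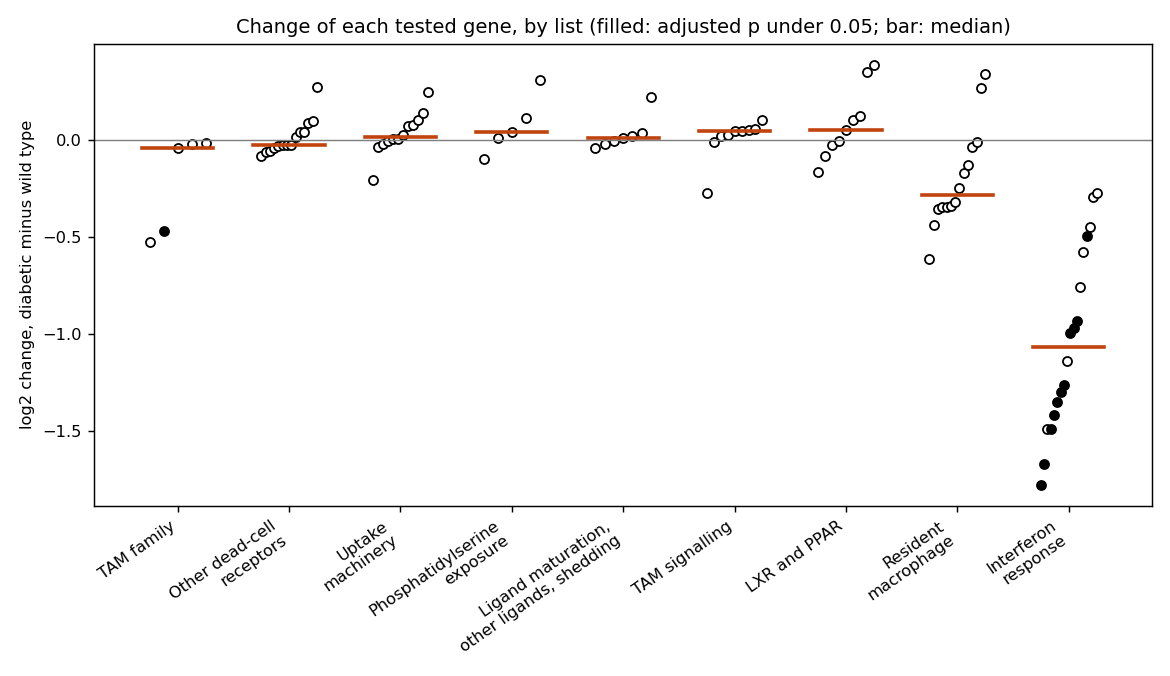
Log2 change of each tested gene in the TAM family and 8 other lists, with filled points for an adjusted p under 0.05 and an orange bar for the median of a list. Mertk is the only filled point among the TAM family and the 6 pathway lists, and 11 of 18 interferon response genes are filled.

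Signalling genes below the receptors had 9 tested members of 11, 7 above 0 and a median of 0.05. Of these genes 0 were called, where 0.410% of all genes tested were. Socs1, the cytokine signalling inhibitor that TAM receptors raise, was at 9.08, 9.22 and 9.14 in wild type and 8.90, 8.80 and 8.92 in diabetic marrow. The groups of Socs1 did not overlap, but the difference of -0.27 ± 0.07 (SE, n = 3 per group) had an adjusted p of 0.285 (limma, Benjamini-Hochberg). The adaptor Grb2 was at 0.10 ± 0.07, Twist2, a repressor of inflammatory genes, at 0.05 ± 0.06 and the kinase subunit Pik3r1 at 0.05 ± 0.07. The mean level of Twist2, 7.59, lay under those of Acta1 and Ckm, so a change in its RNA could be hidden. Grb2 was at 0.058 without diabetic replicate 1 and at 0.17 without diabetic replicate 3. Socs3 and the interferon receptor chains Ifnar1 and Ifnar2, named after their values were seen, were at 0.05 ± 0.10, -0.01 ± 0.06 and 0.02 ± 0.06.

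LXR receptors, which sense cholesterol, are known to switch on Mertk in macrophages that have taken up dead cells. Of 11 genes of the LXR and PPAR list 9 were tested, 0 were called, 5 were above 0, and the median was 0.05. The cholesterol exporters Abca1 and Abcg1, classic LXR targets, were at 0.39 ± 0.16 and 0.35 ± 0.17 (SE, n = 3 per group), and at 0.21 and 0.16 without wild type replicate 3. Abca1 read 9.35, 9.31 and 8.79 in wild type and 9.47, 9.72 and 9.41 in diabetic marrow, with wild type replicate 3 the lowest, and its adjusted p was 0.658 (limma, Benjamini-Hochberg). Nr1h3, which encodes LXR alpha, was at -0.17 ± 0.08 and the partner receptor Rxra at 0.10 ± 0.06. Nr1h3 had a mean level of 7.81, also under those of Acta1 and Ckm. Thus none of the 6 pathway lists held a called gene among 56 tested, where 0.410% of all genes were called in either direction. At that share few or no calls would fall among so few genes, so nothing is read from their absence.

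**Figure D4:**
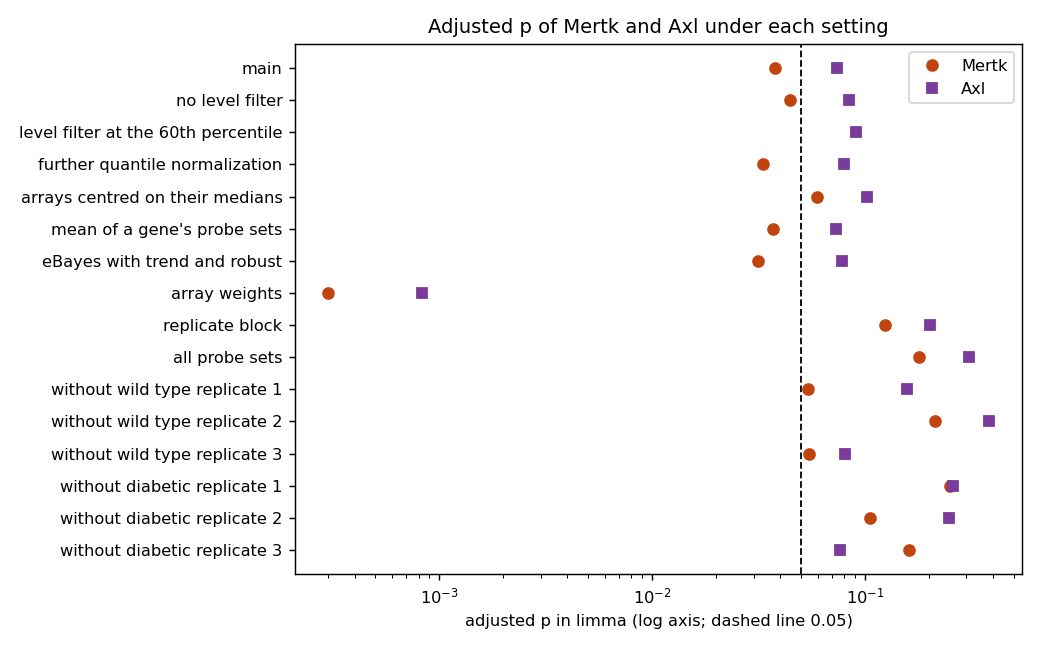
Adjusted p of Mertk and Axl in limma under the reported fit ("main") and each alternative, on a log axis with a dashed line at 0.05. Mertk is at 0.0380 in the reported fit and right of the line without any 1 array, and Axl is left of the line only with array weights. Mertk has no point with the filter at the 60th percentile, because its mean level lies under it.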

How the data were processed

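The deposited unit is log2 signal per probe set. According to the submitters' processing notes, the authors ran RMA within Affymetrix Expression Console, which subtracts background, forces a common distribution on all arrays and merges the probes of each set, removing any shift that most genes share. No source used here gives its version, the genome build or array batches. Precision is limited by having 3 arrays a group.

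Of 35556 probe sets, 21789 had 1 symbol in the platform annotation, 1621 had several and 12146 had none there. Genes were read from the set with the highest mean, filtered at the 40th percentile and compared by the moderated test of limma 3.58.1 (lmFit, then eBayes; R 4.3.3, with version 1.17.8 of the data.table package). It was two-sided, and p values of the 11940 genes were adjusted by the Benjamini-Hochberg method, with 0.05 as threshold. The direction is diabetic minus wild type. The fit was tested on simulated data. Within-array differences were compared by exact permutation over arrays. The members and the 15 lists were chosen with earlier results of these data known. Genes were named by rule: all members, the 3 genes most like each tested member, up to 4 genes per pathway list and 5 of the macrophage and interferon lists with the smallest p, called genes, and up to 3 of each other marker list by level. Alternatives were the filter, normalization, probe set rule, eBayes settings, array weights, replicate block, features tested and leaving out each array. Figures were drawn with matplotlib 3.10.9 and pandas 2.3.3 in Python 3.11.15. Promoter windows came from RefSeq (GRCm38.p6), where all 6 members matched. Protein sequences were not used here. Members' probe sets were read as whole genes, so splice forms were not told apart.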

Additional observations from a re-analysis of the deposited data

How the results depend on the processing

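The change of Mertk stayed negative in every alternative run. Its call was lost with arrays centred on their medians (-0.48, adjusted p 0.0597 (limma, Benjamini-Hochberg)) and with all probe sets tested (-0.47, adjusted p 0.180). With the replicate block, Mertk was at -0.47 with an adjusted p of 0.124 and 2 genes were called. The correlations of deviations of same-numbered arrays were 0.33, -0.04 and -0.05. Wild type replicate 1 correlated best with the diabetic array of its own number, and wild type replicates 2 and 3 did not. With 3 arrays per group these values cannot settle whether the numbers pair the samples. With array weights Axl passed at -0.65, while Tyro3, Gas6 and Pros1 turned to 0.0087, 0.019 and 0.13. Leaving out 1 array gave -0.52 to -0.43 for Mertk, -0.057 to 0.023 for Tyro3, -0.050 to 0.035 for Gas6, -0.11 to 0.15 for Pros1, -0.068 to 0.017 for Vkorc1l1, -0.073 to 0.15 for Vkorc1, -0.0026 to 0.080 for Pik3r1 and -0.021 to 0.18 for Mertk minus Axl. Of the 6 members, 1 was called; the count was 0 with the filter at the 60th percentile, median centring, the replicate block or all probe sets, 2 with array weights, and 0 without any 1 array. The 49 genes called overall became 1131 with array weights, 2 with the block and 1 with all probe sets, and without 1 array it lay between 3 and 68. The cause of these moves was not tested, beyond the fewer arrays or other number of features that the settings bring. A tally covered the other genes named by rule from the pathway, macrophage and interferon lists and those most like Mertk or Axl. Of their values under alternatives 574 kept direction and call, 75 lost a call, 13 gained one, all with array weights, and 3 reversed. Mertk, Tyro3, Gas6 and Pros1 were not tested with the filter at the 60th percentile, since their mean signals lay at the 57.0, 41.0, 44.2 and 39.4 percentile of the named probe sets.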
